A study of Homo sapiens with 6 samples.

Results

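Proteasome genes were taken here as the protein-coding genes whose symbols open with PSMA, PSMB, PSMC, PSMD, PSME, PSMF or PSMG followed by a digit, with no hyphen. The rule found 50 of 20162 protein-coding genes, of which PSMC3IP and PSME3IP1 encode partner proteins that only share the letters. SMARCA4, the ATPase of the SWI/SNF chromatin remodelling complex, was mapped by ChIP-seq in K562, an established human line from a chronic myelogenous leukaemia, to set its sites beside folded G-quadruplexes (G4s). The experiment had 3 libraries made with a SMARCA4 antibody and 3 input libraries from chromatin without that step, all of untreated K562 fixed in 2 steps (disuccinimidyl glutarate, 2 mM, 30 min, then formaldehyde, 1%, 10 min) and sheared to 150 to 400 bp. The ChIP libraries are called biological replicates in the paper's results and technical ones in the deposited description. The 28265 peaks analysed are those found in at least 2 of the 3 ChIP libraries, so the replicates are pooled and no SD can be given. The list gives no peak heights or reads, and library depth was not used here. Of 10 erythroid marker genes, among them GATA1, TAL1, KLF1 and the gamma-globin genes HBG1 and HBG2, 10 had a peak within 1 kb of the gene record's 5′ end, and of 11 marker genes of B cells, T cells, liver, neurons and epithelium 1 did (SYP). At the start of the canonical transcript these counts were 9, without HBE1, and 1.

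The proteasome degrades proteins tagged with ubiquitin. Its 20S core is a barrel of alpha and beta rings with the cutting sites inside, and the 19S cap, made of a base with ATPases and a lid with a deubiquitinase, binds, unfolds and feeds in the substrate. Most subunit genes are transcribed in every cell and rise together when the proteasome is inhibited, through NFE2L1 with a small MAF protein at antioxidant response elements (AREs), while interferon induces the immunoproteasome forms.

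A SMARCA4 peak lay within 1 kb either side of the 5′ end of 38 of the 50 proteasome genes (76%, 95% Wilson interval 62.6 to 85.7%). The same was true of 8526 of all 20162 protein-coding genes, or 42.3%, and of 60.9% of the 11229 genes whose start is CpG-rich, meaning a CpG observed to expected ratio of at least 0.6 and at least 55% GC over 500 bp. Of the 38 proteasome genes with a CpG-rich start 32 had a peak (84.2%, interval 69.6 to 92.6%). Of the 12 others 6 did (50%, interval 25.4 to 74.6%), against 18.9% of all protein-coding genes without a CpG-rich start. The gene record reaches to the outermost transcript, and at 8 members (PSMA1, PSMA6, PSMB9, PSMC2, PSME3, PSMF1, PSMG2 and PSMG4) its end lay more than 1 kb from the start of the canonical transcript. With canonical starts 41 members had a peak (82%, interval 69.2 to 90.2%), beside 44.2% of all protein-coding genes and 60.7% of those with a CpG-rich canonical start. PSMB9, PSMF1 and PSMG4 made the difference. All intervals cover counting error only, and genes are not independent replicates. Below, positions are in bp along the direction of transcription, with negative values upstream of the start.

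**Figure D1:**
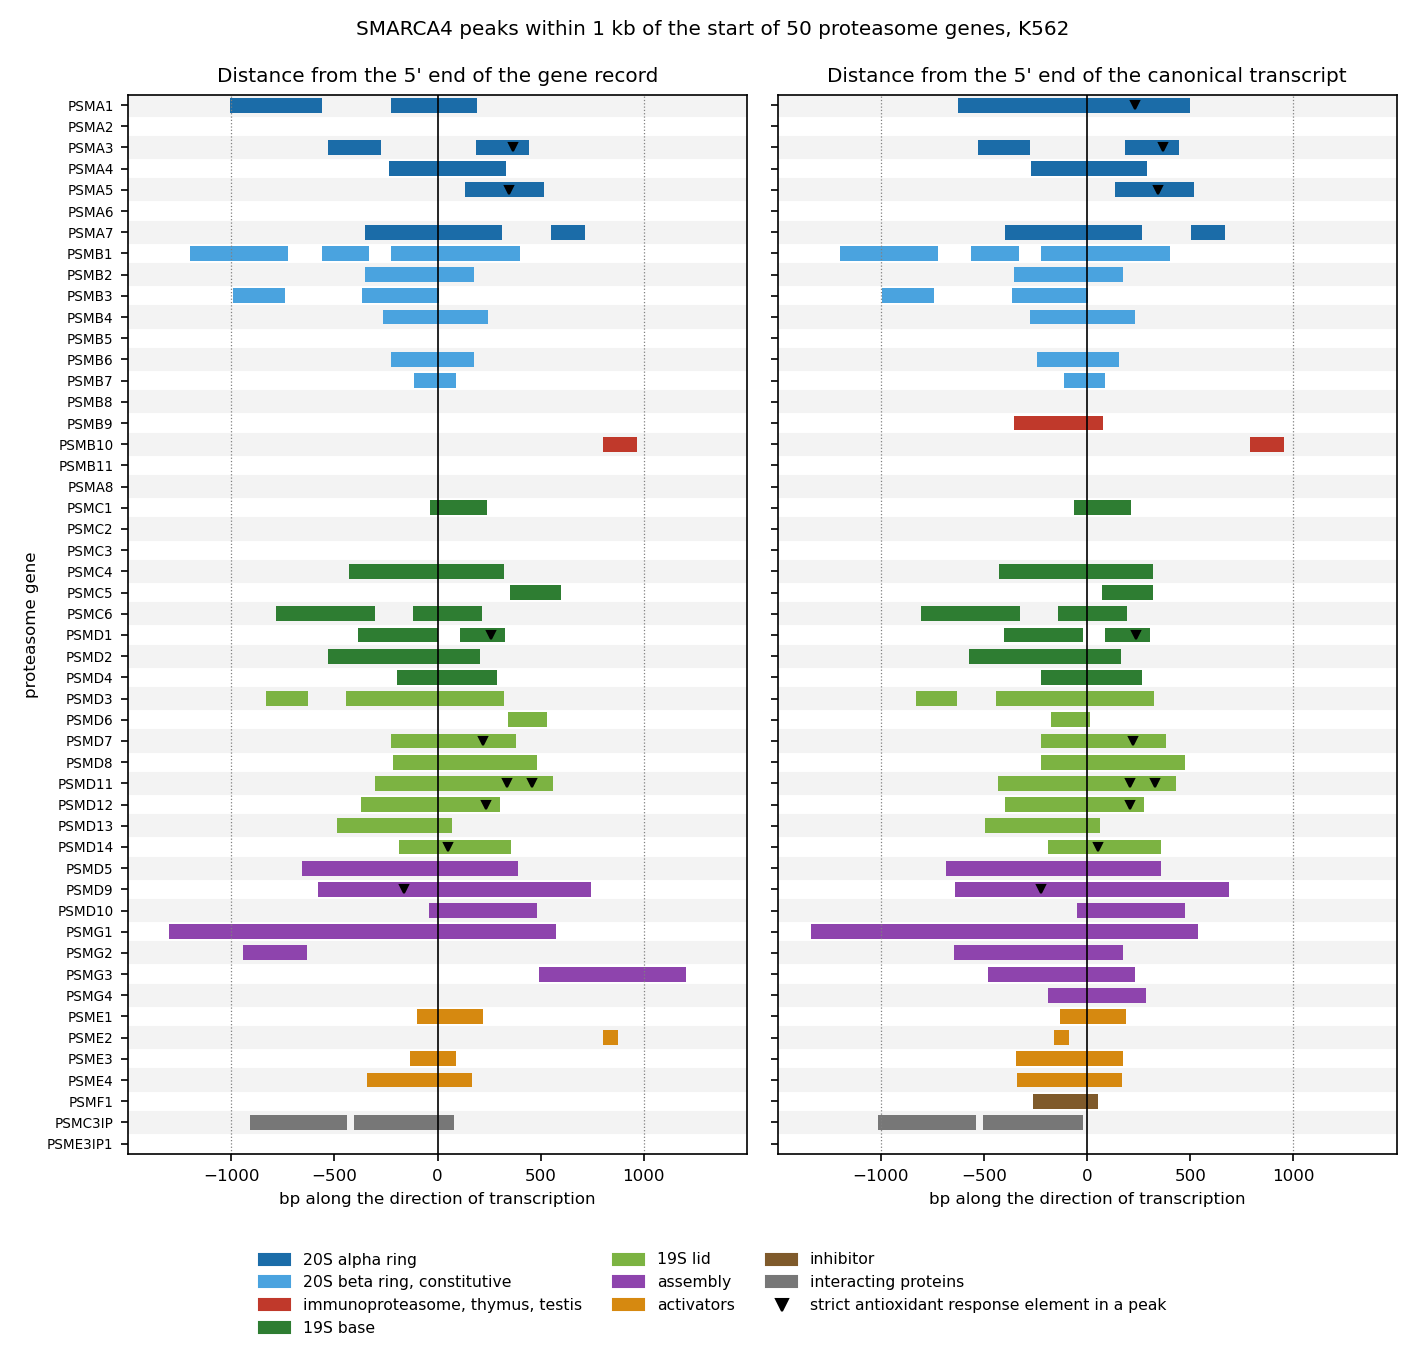
SMARCA4 peaks (bars, to scale) within 1 kb (dotted lines) of the start (0) of each of the 50 proteasome genes, by distance in bp from the gene record's 5′ end (left) and from the canonical start (right), coloured by role. Most bars lie over the start, rows with no bar have no peak, and triangles mark strict AREs inside peaks, which lie downstream of the canonical start in all genes shown but PSMD9.

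The peaks at proteasome genes held, more often than those at other genes, the letters TGANTCAGC, a strict form of the ARE, where N is any base and both strands are read. Similar letters are read by NFE2, the erythroid relative of NFE2L1. Among the 38 members with a peak, 8 had the strict ARE inside a peak (21.1%, interval 11.1 to 36.3%), against 2.89% of the 8526 protein-coding genes with a peak and 2.54% of those that also have a CpG-rich start. With canonical starts the count was 9 of 41 (22%), against 2.84% of all genes with a peak. The excess was not limited to peaks. Within 500 bp of canonical starts, peak or not, 10 of 50 members held the letters (20%), against 2.62% of all genes. From 250 bp before to 50 bp after that start 1 of 50 did (2%), against 0.992%. The strict ARE was 1 of 17 short motifs searched. The 10 matches inside peaks at the 9 genes found with canonical starts are shown with 8 bases on each side (hg19, 5′ to 3′ on the strand named, the motif in capitals). They are shown because these genes share them and the rule did not use them.
PSMA1 (chr11:14541686-14541710, minus strand): tccggcagTGATTCAGCatctccgg
PSMA3 (chr14:58711917-58711941, minus strand): gaagaaagTGACTCAGCaatccaaa
PSMA5 (chr1:109968713-109968737, plus strand): cccaggggTGACTCAGCggtaggac
PSMD1 (chr2:231921806-231921830, minus strand): accggcccTGACTCAGCtaaaagcc
PSMD11 (chr17:30771724-30771748, minus strand): tcacacagTGAGTCAGCagcatcag
PSMD11 (chr17:30771845-30771869, minus strand): gccccccgTGAGTCAGCagccggcg
PSMD12 (chr17:65362473-65362497, plus strand): ccgcgccgTGACTCAGCccctggcg
PSMD14 (chr2:162164975-162164999, minus strand): accggcgaTGAATCAGCccgattcc
PSMD7 (chr16:74330920-74330944, minus strand): cgtgcccgTGACTCAGCagcggctg
PSMD9 (chr12:122326461-122326485, plus strand): tgagaaaaTGAGTCAGCtggggcga
In 8 of these 9 genes the match lay downstream of the canonical start, at 51 to 368 bp, and in 7 of them it was in intron 1. PSMD14 has it in exon 1, and PSMD9 at -223, outside the transcript. Such places were not counted for other genes, so they cannot be called particular to the members. The host genes encode alpha ring subunits (PSMA1, PSMA3 and PSMA5), the base scaffold PSMD1, the lid subunits PSMD7, PSMD11 and PSMD12, the lid deubiquitinase PSMD14 and the assembly chaperone PSMD9. A count within 1 kb of the canonical start was added after these matches were seen. There 11 members held a strict ARE (22%, against 5.5% of all protein-coding genes), and in 9 of them a match was inside a peak. Of 1109 protein-coding genes with such a match, 215 had it inside a peak (19.4%, interval 17.2 to 21.8%). These shares are not of like genes, since 82% of members but 44.2% of all genes have any peak at canonical starts. The distance of the match from the start was not matched either, so no preference of peaks for the members' matches can be read from them. The members with no match inside a peak were the base scaffold PSMD2, with a match at 205 bp, and the activator PSME2, with one at 888 bp in exon 3. PSMA3 has another match at 529 bp, outside its peaks.

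In the alpha ring, which gates the core, 5 of 7 genes had a peak. PSMA4 had 1 of 563 bp over its start, and PSMA5 1 of 384 bp beginning 134 bp downstream. PSMA3 had a peak on either side of its start, of 255 bp centred at -403 and of 260 bp centred at 314 in the intron, with the start itself uncovered. PSMA7 had peaks of 665 and 166 bp. The record of PSMA1 begins 123249 bp upstream of its canonical start, beside PDE3B, where it had peaks of 416 and 446 bp, and at the canonical start it had 1 peak of 1124 bp. PSMA2 and PSMA6 had none at either start, and the nearest peaks were 9516 and 73096 bp from their canonical starts.

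In the constitutive beta ring 6 of 7 genes had a peak. PSMB1 had 3, of 625, 230 and 475 bp, the last over the start of TBP, the TATA-binding protein gene that is read the other way. PSMB3 had 2, of 370 and 252 bp. PSMB2 and PSMB4 had 1 each over the start, of 527 and 509 bp. The 3 catalytic subunits differed. PSMB6, the caspase-like one, had a peak of 400 bp centred at -24, and PSMB7, the trypsin-like one, had a peak of 200 bp centred at -12. PSMB5, the chymotrypsin-like subunit bound by bortezomib, had none within 1 kb of either start, and the nearest lay 13722 bp from the canonical one, in the gene body. The 500 bp around the canonical start had a CpG observed to expected ratio of 0.573 at PSMB5, 0.704 at PSMB6 and 0.69 at PSMB7. The 80 bases just before each canonical start are shown to set the start without a peak beside those with one (hg19). Capitals mark matches to the searched motifs: TTCNNNGAA (GAS, bound by STAT factors) in PSMB5, TGACNNNGC (ARE core) in PSMB6, and GGGCGG (SP/KLF, here on the other strand) and CCGGAAG (ETS) in PSMB7.
PSMB5 (chr14:23504110-23504189, minus strand): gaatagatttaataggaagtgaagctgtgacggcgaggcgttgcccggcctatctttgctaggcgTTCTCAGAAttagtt
PSMB6 (chr17:4699379-4699458, plus strand): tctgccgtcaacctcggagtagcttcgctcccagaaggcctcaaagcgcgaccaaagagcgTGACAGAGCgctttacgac
PSMB7 (chr9:127177722-127177801, minus strand): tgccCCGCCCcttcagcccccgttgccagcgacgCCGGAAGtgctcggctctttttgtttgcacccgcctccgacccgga

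In the base of the 19S cap 7 of 9 genes had a peak. Of the ATPases, PSMC4 had 1 of 751 bp over its start, PSMC1 1 of 276 bp, and PSMC6 peaks of 479 and 333 bp. The peak of PSMC5, 249 bp wide, began 73 bp downstream of the canonical start and covered the start of FTSJ3, a ribosomal RNA methyltransferase gene read the other way. PSMC2 and PSMC3 had no peak. The nearest to PSMC2 was 2593 bp from its canonical start and covered the start of DNAJC2, and the nearest to PSMC3 was 17629 bp away at SLC39A13. The scaffold PSMD2 had a peak of 736 bp, the ubiquitin receptor PSMD4 one of 488 bp, and PSMD1 had peaks of 385 and 218 bp on either side of its canonical start. The lid was the largest group in which every gene had a peak, 8 of 8 (interval 67.6 to 100%). Widths there were 863 bp at PSMD11, 769 bp at PSMD3 (with another peak of 201 bp), 698 bp at PSMD8, 672 bp at PSMD12, 606 bp at PSMD7, 559 bp at PSMD13 and 547 bp at PSMD14, the deubiquitinase. PSMD6 was the exception in size, with 187 bp.

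The assembly chaperones had the 3 widest peaks near the record's end. PSMG1, which with PSMG2 starts the alpha ring, had 1 of 1878 bp (chr21:40554839-40556716) that ran from exon 1 far upstream, centred at -363. PSMD9 and PSMD5, chaperones of the base, followed with 1326 bp and 1045 bp (at canonical starts the 1124 bp of PSMA1 come between these), and their partner PSMD10 had 523 bp. The median over the 6 assembly genes with a peak was 879 bp (313 to 1878 bp). PSMG2 and PSMG4 depended on the start used. At the record's end PSMG2 had a peak of 313 bp, near SPIRE1, and at the canonical start 1 of 820 bp that also covers the start of CEP76. PSMG4 had none at the record's end and 1 of 474 bp at the canonical start. PSMG3, the partner of PSMG4, had 713 bp.

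The immunoproteasome, thymus and testis forms had fewer peaks than the constitutive genes. Of the 5 genes 1 had a peak near the record's end (20%, interval 3.62 to 62.4%), against 36 of the 43 constitutive genes (83.7%, interval 70 to 91.9%) and 42.3% of all protein-coding genes. Near the canonical start 2 of 5 had one (40%, interval 11.8 to 76.9%), against 38 of 43 (88.4%, interval 75.5 to 94.9%) and 44.2%, and there the intervals overlap. With only 5 genes neither share can be told from that of all genes. Grouped by induction instead, a grouping chosen later, the interferon-induced genes PSMB8, PSMB9, PSMB10, PSME1 and PSME2 had a peak in 3 of 5 and, at canonical starts, 4 of 5. Of these, PSME1 and PSME2, both with a peak, were counted above among the 43 constitutive genes. PSMB8, which replaces PSMB5 after interferon, had none, and the nearest lay 5109 bp from its canonical start and covered the start of TAP2. PSMB9, which replaces PSMB6, had a peak of 434 bp over its canonical start (chr6:32821613-32822046), which lies 488 bp from the start of the peptide transporter gene TAP1, read the other way. Its record begins 10056 bp further upstream, 543 bp from the end of the PSMB8 record, and had no peak there. PSMB10, which replaces PSMB7, had only a peak of 164 bp centred at 885 in exon 4, whose edge, 803 bp from the record's end, was the farthest of any member that counted. That peak covers the start of another coding gene, read the same way. Within 500 bp of the record's end, or with peaks of at least 200 bp, 0 of the 3 immunoproteasome genes had a peak. PSMB11, the beta subunit of thymic epithelium, and PSMA8, the alpha subunit of spermatocytes, had none, and the nearest were 14051 and 42426 bp from the record's end. The next peaks outside the window, at PSMF1, PSMB9 and PSMB8, were 5102, 5198 and 5741 bp from the record's end, so no member was close to the limit of 1 kb from outside.

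Another stretch recurred at some interferon-induced forms and elsewhere. GAAANNGAA, the interferon-stimulated response element, was found between 250 bp before and 50 bp after the record's end in 5 of 50 members (10%, interval 4.35 to 21.4%), against 7.39% of all protein-coding genes. At canonical starts it was in 7 (14%, interval 6.95 to 26.2%), against 7.07%, and both intervals hold the share of all genes. In 5 of the 7 (PSMB8, PSMB10, PSME1, PSME2 and PSMG4) the letters were the same, GAAAGCGAA, which 67 of the 20162 genes hold (0.332%). This form was chosen after the matches were seen, and at the record's end 3 members hold it. It lay at PSME1 and PSMG4 inside a peak and at PSMB8, PSMB10 and PSME2 outside (hg19, motif in capitals).
PSMB10 (chr16:67970758-67970782, minus strand): gtaaaggcGAAAGCGAAagcaggaa
PSMB8 (chr6:32811811-32811835, plus strand): gaggaagtGAAAGCGAAagccacag
PSME1 (chr14:24605401-24605425, minus strand): cgcgaaggGAAAGCGAAagcggtag
PSME2 (chr14:24615831-24615855, minus strand): tggggagtGAAAGCGAAagcccggg
PSMG4 (chr6:3259140-3259164, plus strand): ccggggccGAAAGCGAAagcgcgct
PSMB9 held these letters near its record's end, where the match is the one shown for PSMB8, and not in this window at its canonical start. PSMG4 is an assembly chaperone gene, and whether interferon induces it was not analysed here. Within 500 bp of the canonical start 8 members held them (16%, against 0.863% of all genes), the 5 shown, PSMB9 and the constitutive PSMA2 and PSMC4, and at PSMC4 a match was inside a peak. GGGANTTTC, the NF-kB site, was in no member's window at either start, and in 1.29% of all protein-coding genes at the record's end.

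The activators dock on the core in place of the cap, and 4 of 4 had a peak. PSME1 and PSME2, which form the ring that interferon induces, lie close together on chromosome 14. PSME1 had a peak of 323 bp over its start. PSME2 had the narrowest of any member, 73 bp (chr14:24615906-24615978), centred at -123 from the canonical start without reaching it. PSME3, the nuclear activator, had 223 bp at the record's end and 518 bp at the canonical start, and PSME4, which acts on acetylated histones, had 510 bp. PSMF1, the inhibitor, had none at the record's end and 314 bp at the canonical start. PSMC3IP, a cofactor of meiotic recombination, had peaks of 485 and 472 bp, and PSME3IP1, a partner of PSME3, had none within 58637 bp.

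**Figure D2:**
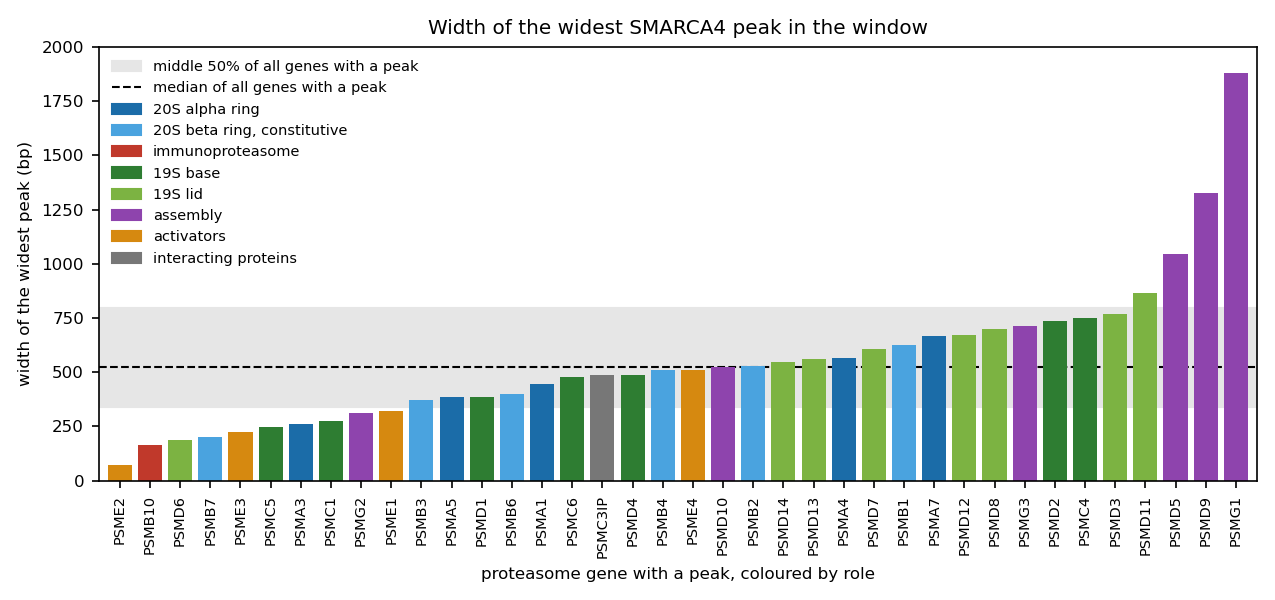
Width in bp of the widest SMARCA4 peak within 1 kb of the gene record's 5′ end, for each of the 38 proteasome genes with a peak, coloured by role. The grey band and dashed line give the middle 50% and the median (523 bp) of all protein-coding genes with a peak, and 3 assembly genes exceed 1000 bp.

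In width and position the members resembled other genes with a peak. The median of the widest peak was 509.5 bp (95% binomial interval 385 to 606 bp), against 523 bp (516 to 531 bp) over all 8526 genes with a peak and 368 bp over all 28265 peaks. The 5 widest were at PSMG1, PSMD9, PSMD5, PSMD11 and PSMD3, and the 5 narrowest at PSME2, PSMB10, PSMD6, PSMB7 and PSME3. A peak covered the start in 30 of 38 members (78.9%, interval 63.7 to 88.9%) and 72.2% of all genes with a peak. The median centre lay at -10 bp from the start, against -2 bp. PSMA1, PSMA3, PSMA7, PSMB1, PSMB3, PSMC3IP, PSMC6, PSMD1 and PSMD3 had 2 or more peaks, 9 of 38 (23.7%) against 25.3%.

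G4 motifs were taken as 4 guanine runs, each 3 or longer, separated by 1 to 7 bases, and both strands were read. They were in the peaks of 12 of the 38 members (31.6%, interval 19.1 to 47.5%). Of all protein-coding genes with a peak 50.1% had one. Among those with a CpG-rich start it was 12 of 32 members (37.5%, interval 22.9 to 54.7%), against 52.9%, which that interval holds. The members' GC content over 500 bp at the start had a median of 63.2%, against 65.6% over all genes with a peak. With canonical starts 14 of 41 members had a motif (34.1%, interval 21.6 to 49.5%), against 51.3%, and 13 of 37 with a CpG-rich start (35.1%, interval 21.8 to 51.2%), against 53.4%, so here neither interval holds the share of all genes. Over the whole 1 kb either side of the record's end, peak or not, 32 of 50 members had a motif (64%, interval 50.1 to 75.9%), against 65.3% of all protein-coding genes. Among genes with a peak the whole window held a motif in 24 of 38 members (63.2%, interval 47.3 to 76.6%), against 75.9%, and at canonical starts in 27 of 41 (65.9%, interval 50.5 to 78.4%), against 77.5%. With a CpG-rich start too it was 21 of 32 (65.6%, interval 48.3 to 79.6%), against 79.2%, and at canonical starts 24 of 37 (64.9%, interval 48.8 to 78.2%), against 79.8%. In like genes the members were thus lower over the window too, by less than counting error in 3 of these 4 comparisons. PSMA7 and PSMD11 had 3 each, PSMC4 and PSMD4 had 2, PSMG2 had 2 at the record's end only and PSMG4 2 at the canonical start only. Those of PSMA7, an alpha subunit, and PSMD11, a lid subunit, are shown on the strand of the guanines, with the guanine runs in capitals (hg19).
PSMA7 (chr20:60718226-60718253, minus strand): GGGGcctgcgcGGGGccGGGGacgcGGG
PSMA7 (chr20:60718615-60718639, plus strand): GGGccGGGcgctGGGtgcgaGGGGG
PSMA7 (chr20:60718757-60718785, minus strand): GGGGGGGaaGGGGGcGGGagcgcGGGGGG
PSMD11 (chr17:30771381-30771402, minus strand): GGGcgcGGGctgaGGGGtGGGG
PSMD11 (chr17:30771464-30771488, plus strand): GGGacccgaGGGcGGGctttccGGG
PSMD11 (chr17:30771878-30771902, plus strand): GGGtGGGagagtGGGccgagccGGG
At PSMA7 they lay at 210, -177 and -321 bp from the canonical start, and at PSMD11 at -136, -52 and 362 bp. Whether they fold in these cells was not analysed here. GGGCGG, the SP/KLF box, can lie within a G4 motif. It was near the record's end of 31 members (62%, interval 48.2 to 74.1%), against 52.1% of all protein-coding genes and 77.5% of those with a CpG-rich start. In the peaks it was in 26 of 38 members (68.4%, interval 52.5 to 80.9%), against 83.1% of all genes with a peak and 86.8% of those with a CpG-rich start. At canonical starts it was in the peaks of 31 of 41 (75.6%, interval 60.7 to 86.2%). That interval holds the 83.8% of all genes with a peak, but not the 87.1% of those with a CpG-rich start. Within 500 bp of the record's end, peak or not, it was in 42 of 50 members (84%, interval 71.5 to 91.7%), against 71.7% of all genes, which that interval holds. Within 500 bp of canonical starts it was in 45 of 50 (90%, interval 78.6 to 95.7%), against 76.5%, which that interval does not hold.

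In all 17 short motifs were counted from 250 bp before to 50 bp after the start on both strands, and also within 500 bp and in the peaks, so some can differ from the other genes by counting error. The ARE core TGACNNNGC was in 14 of 50 members (28%, interval 17.5 to 41.7%) at the record's end, against 13.6% of all protein-coding genes and 15% of those with a CpG-rich start. At canonical starts it was also in 14, against 14%. PSMA7 had 3 matches there, and PSMD3 and PSMD9 had 2. All 14 genes have a peak near the canonical start, where 82% of all members have one. Of the 2827 protein-coding genes with the core there, 1404 have a peak. In 12 of the 14 members a match was inside a peak, a share that was not counted for other genes, so no link of the core to peaks can be read from it. Anywhere in the peaks at canonical starts the core was in 20 of 41 members (48.8%, interval 34.3 to 63.5%), against 28.6% of all genes with a peak. The core and the strict form overlap where N of the strict form is C, and the strict form contains the AP-1 letters TGANTCA. The strict form itself was in this narrow window in PSMD9 alone, as in 1.06% of all genes, since the others lay further downstream. The ETS letters CCGGAAG were in 13 members at the record's end (26%, interval 15.9 to 39.6%), against 11.8% of all genes and 17.9% of CpG-rich ones. At canonical starts they were in 20 (40%, interval 27.6 to 53.8%), against 14% and 19.1%. In 17 of the 20 a match lay within 50 bp of the start. This share was not counted for other genes, so it cannot be called particular to the members. Matches of 4 of these genes are given (hg19, motif in capitals).
PSMB7 (chr9:127177753-127177775, minus strand): cagcgacgCCGGAAGtgctcggc
PSMD12 (chr17:65362687-65362709, plus strand): cacccacaCCGGAAGttgcccgc
PSMD13 (chr11:236956-236978, plus strand): gctcggcgCCGGAAGtgagtgag
PSMD14 (chr2:162164924-162164946, plus strand): tagtgaacCCGGAAGtgcttcgc
AAGATGGC, the YY1 site, was in 4 members at the record's end (8%, interval 3.15 to 18.8%), against 3.02% of all genes and 4.08% of CpG-rich ones. At canonical starts it was in 6 (12%, interval 5.62 to 23.8%), against 4.02%, 5.24% of CpG-rich genes and 6.69% of genes with a peak. In PSMA2, PSMB6, PSMB7, PSMD5 and PSMD11 it lay 10 to 28 bp downstream of the start, read along the gene, and its ATG was part of the annotated start codon (hg19).
PSMA2 (chr7:42971745-42971768, minus strand): ttcgggtaAAGATGGCggagcgcg
PSMB6 (chr17:4699479-4699502, plus strand): ggaggagaAAGATGGCggctacct
PSMB7 (chr9:127177692-127177715, minus strand): ttcttgggAAGATGGCggctgtgt
PSMD11 (chr17:30771531-30771554, plus strand): agagcggtAAGATGGCggcggcgg
PSMD5 (chr9:123605175-123605198, minus strand): cggggggcAAGATGGCagcccagg
PSMA2, in which it overlaps the codon too, is the one of these genes without a peak. CCAAT, the NF-Y box, was in 22 members (44%) at the record's end, against 35.8% of all genes. AGATAA, the GATA site, was in 0 of 50 (upper limit 7.13%), against 8.79% of all genes and 3.63% of CpG-rich ones, in 1 at canonical starts (upper limit 10.5%), against 7.23%, and in the peaks of 7 of 38 (18.4%), against 15.3%. TGACGTCA, the CRE, was in 0 of 50, against 2.29%, and GCGCATGCG, the site of nuclear respiratory factor 1, in PSMA4 alone, against 2.35%. TATAAA was in 3 members (6%), against 10.9%, and CACGTG, the E-box, in 3, against 8.33%. GAANNTTC, the heat shock element, was in PSMC3IP alone, against 6.02%. TCTCGCGA, a ZBTB33 type of site, was in PSMB2 and PSMD5 (4%), against 1.45%. TTCNNNGAA was in 5 members (10%, interval 4.35 to 21.4%), against 7.11%, and at canonical starts in 7 (14%, interval 6.95 to 26.2%), against 6.46%, PSMB5 among them. A match is a description of the sequence and not a site shown to be bound.

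**Figure D3:**
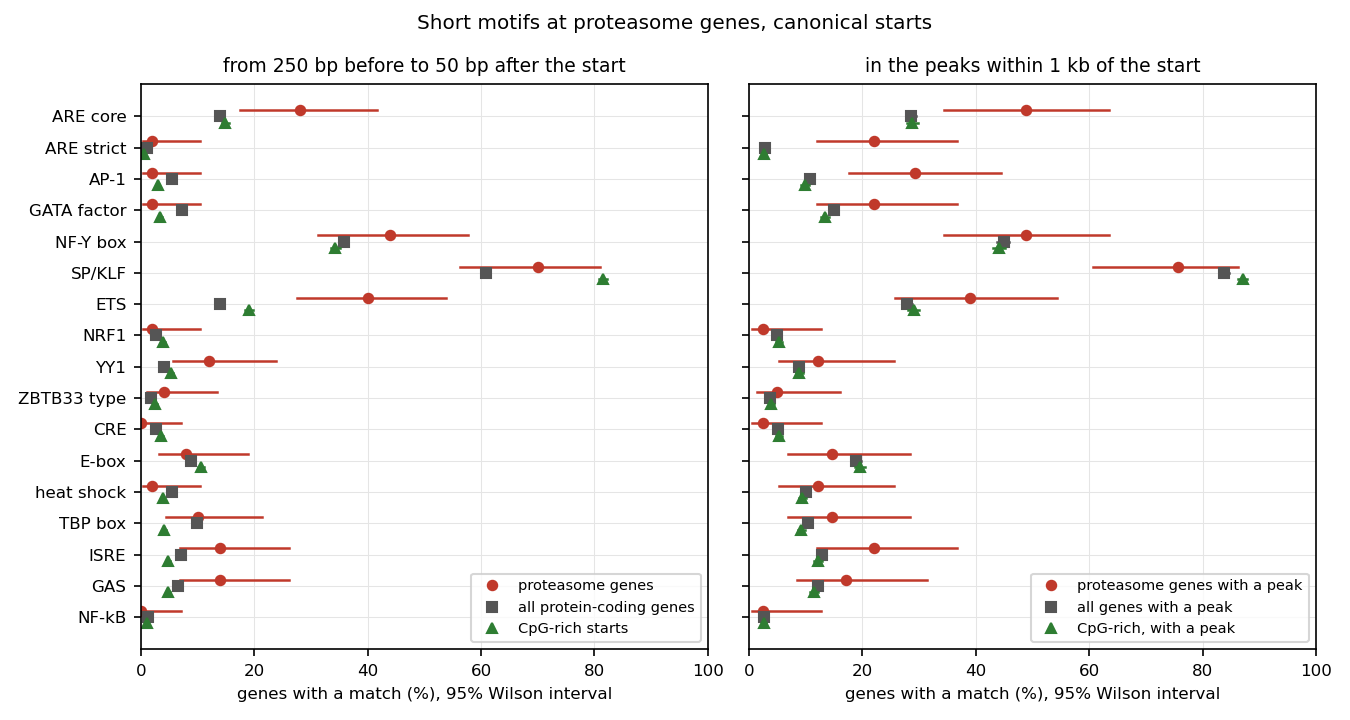
Share of genes (%, with 95% Wilson intervals as lines) that hold each short motif from 250 bp before to 50 bp after the canonical start (left) or inside their SMARCA4 peaks (right), for proteasome genes (circles), all genes (squares) and CpG-rich ones (triangles). On the left the ARE core and ETS letters, at 28% and 40% of members, stand above the 14% of all genes, and on the right the strict ARE stands at 22% of members against 2.84%.

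Some peaks could not be given to 1 gene. Of the 38 members with a peak 10 had the start of another protein-coding gene within 1 kb (26.3%, interval 15 to 42%), against 28.6% of all genes with a peak. Canonical starts gave 11 of 41 (26.8%, interval 15.7 to 41.9%), against 23% of all genes with a peak there. Among them were PSMD13 with the deacetylase gene SIRT3 at 634 bp, PSME4 with ACYP2 at 120 bp, PSMD10 with the autophagy gene ATG4A at 236 bp and PSMA7 with SS18L1, a paralogue of a SWI/SNF subunit gene, at 375 bp, each read the other way. Of 9 members with an upstream start read the other way within 1 kb 7 had a peak (77.8%), against 78.9% of all such genes. These counts rest on distances between gene starts. At the record's end they leave out PSMC5 and PSME3, whose peaks covered a start of FTSJ3 and of BECN1.

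The other genes of the pathway had peaks at least as often. Of 31 listed genes 28 had a peak at the record's end (90.3%, interval 75.1 to 96.7%) and 30 at the canonical start. They include NFE2L1, the factor that raises proteasome gene transcription, its protease DDI2 and its deglycosylase NGLY1, the segregase VCP, the core chaperone POMP, the ubiquitin receptor ADRM1, the deubiquitinases USP14 and UCHL5, and the ubiquitin gene UBB. The activating enzyme gene UBA1 and the VCP cofactor NPLOC4 had a peak at the canonical start only, and UBLCP1, a phosphatase of the proteasome, had none at either. Among genes of other large complexes, 73 of 86 cytosolic ribosomal protein genes had a peak at the record's end (84.9%, interval 75.8 to 90.9%), 62 of 78 mitochondrial ones (79.5%, interval 69.2 to 87%) and 8 of 9 genes of the CCT chaperonin. Of the complexes built like the lid, the COP9 signalosome had 5 of 10 and eIF3 9 of 13, or 7 and 10 with canonical starts. At canonical starts the cytosolic ribosomal genes had 78 of 86 (90.7%, interval 82.7 to 95.2%) and the mitochondrial ones 63 of 78 (80.8%). The interval of the proteasome genes holds the shares of both ribosomal lists at the record's end and that of the mitochondrial list at canonical starts, and overlaps the interval of the cytosolic list there.

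**Figure D4:**
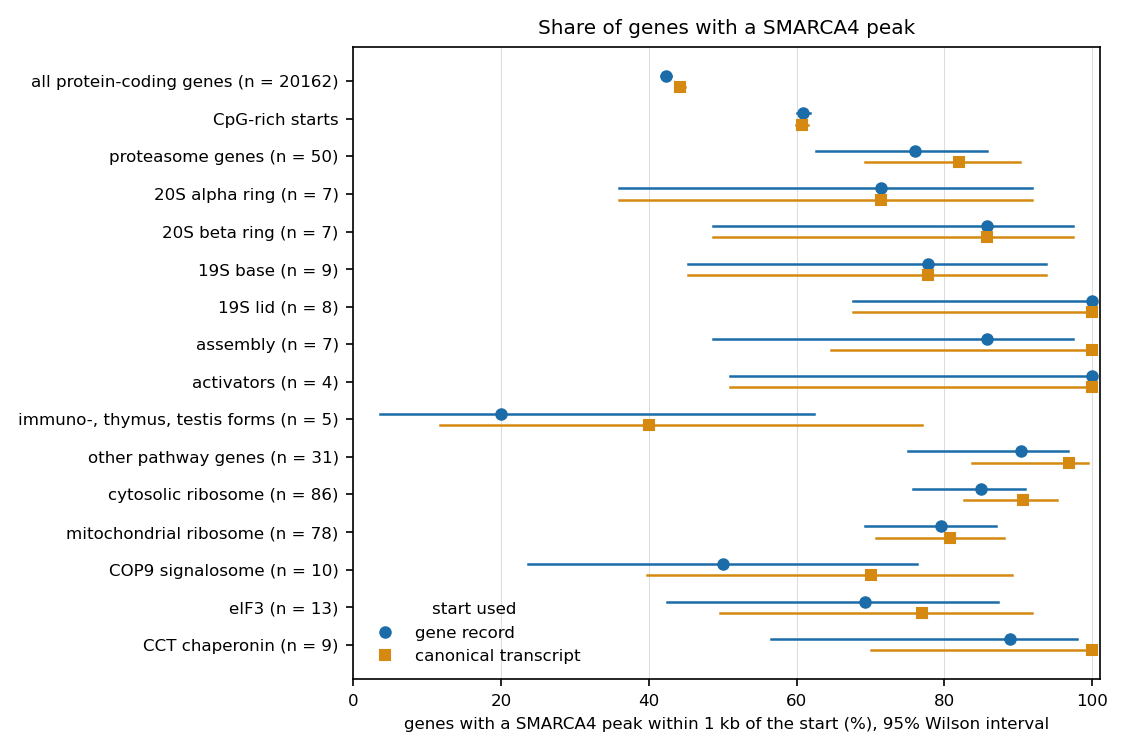
Share of genes (%) with a SMARCA4 peak within 1 kb of the start, with 95% Wilson intervals as lines, for all genes, CpG-rich starts, proteasome genes and their roles, and comparison lists, using the gene record (circles) or the canonical transcript (squares). Proteasome genes stand at 76% and 82%, above the 42.3% and 44.2% of all genes and beside the ribosomal lists, and the immunoproteasome, thymus and testis forms at 20% and 40%.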

How the data were processed

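The deposited list gives coordinates in bp and no scores. In the authors' steps cutadapt removed adapters, BWA placed the reads on hg19, and Picard and SAMtools handled duplicates. MACS2 called peaks in each library by q-value against input, and bedtools kept those in at least 2 of 3 replicates, which the list pools. Peaks were compared with the hg19 sequence and GENCODE 44 lifted to that build, with Python 3.11.15, numpy 2.4.6, scipy 1.17.1, pysam 0.24.0 and matplotlib 3.10.9. A gene counted when at least 1 bp of a peak lay within 1 kb of the 5′ end of its record. The canonical transcript is MANE Select, which all 50 members have. Every member is named within its role, and those with no peak, the 5 widest and narrowest, those with several peaks, and those with strict AREs or most G4 motifs are given in full. Shares carry Wilson intervals and no test was made across genes. Overlap and motif counts were tested on simulated data. The members and lists were chosen with earlier results of these data known. Alternatives were other windows, starts, peak widths, merging and motif settings. The input libraries, signal tracks and G4 sites were not analysed here.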

Additional observations from a re-analysis of the deposited data

How the results depend on the processing

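The count of 38 proteasome genes with a peak stayed between 30 (a peak over the start itself) and 42 (any coding transcript start) in 11 alternatives, against 30.5% and 46.7% of all protein-coding genes. It was 35 within 500 bp (40% of all genes), 32 with 1 kb upstream only (36.3%) and 35 with peaks of at least 200 bp (39.6%). The median width ran from 509.5 to 584.5 bp. G4 motifs rose from 12 of 38 members in peaks (all genes with a peak 50.1%) to 18 with loops of up to 12 bases (67.5%), and to 32 of 50 in the whole window (65.3% of all genes), shares of other genes that were added after seeing the data. Wider stretches held more short motifs. Within 500 bp either side of the record's end the counts of the 50 members, with the share of all protein-coding genes in brackets, were 29 for the ARE core (34.1%), 9 for the strict ARE (2.91%), 13 for AP-1 (17.1%), 9 for GATA (26.2%), 34 for CCAAT (65.6%), 10 for YY1 (7.03%), 1 for the CRE (3.18%), 9 for the E-box (18.2%), 7 for heat shock elements (18.4%), 11 for TATAAA (27%), 18 for GAAANNGAA (22.6%), 10 for GAS (21.5%) and 4 for NF-kB (3.99%). ETS letters were in 18 (20.7%) and GGGCGG in 42 (71.7%). Apart from the ARE core, strict ARE, YY1, GAAANNGAA and ETS, the Wilson intervals of the members hold the shares of all genes. In the peaks of 38 members, with the share of all genes with a peak, they were 18 for the ARE core (29%), 8 for the strict ARE (2.89%), 11 for AP-1 (11%), 7 for GATA (15.3%), 1 for the CRE (5.03%), 5 for the E-box (19.2%), 5 for heat shock elements (10.2%), 6 for TATAAA (10.4%), 9 for GAAANNGAA (13%), 1 for NF-kB (2.6%), 14 for ETS (27.9%) and 5 for YY1 (8.82%). Of these, the intervals for the ARE core, strict ARE and AP-1 leave out the share of all genes. For GAAANNGAA that share lies at the lower limit, and the other intervals hold it. Canonical starts gave 20 for ETS (14%), 5 for TATAAA (9.81%) and 1 each for AP-1 (5.42%) and GATA (7.23%). The longer stretches scanned differ in length from the narrow window. Canonical starts for widths, positions and G4 motifs, and the alternatives for the other lists, were added after seeing the data. No paired analysis was possible because the only file analysed here, a list of regions, pools the libraries, and for the same reason no replicate could be left out. The list has no signal values, so a start without a peak cannot be told apart from one below the detection limit.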
